A study of Rattus norvegicus with 52 samples.

Results

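Kidney RNA was compared between ET3x2 and ET3x1, congenic rat strains in which R strain chromosome segments replace those of the Dahl salt-sensitive SS/jr (S) strain, while both were kept on low salt. The comparison took the 4 ET3x2 rats and the 4 ET3x1 rats on the low salt diet, 8 of the 26 rats of the series and 16 of its 52 arrays, with the 2 chips of a rat matched by its animal number. All non-control probe sets were considered, and 15473 passed a filter on brightness. The ET3x2 low salt group held males of the ET3x2 congenic strain and the ET3x1 low salt group males of the ET3x1 congenic strain, both aged 40 to 42 days and weaned at 30 days onto 0.4% NaCl. For context, ET3x2 and ET3x1 males (4 each) moved to 4% NaCl for the last 24 hours and 5 S males on 0.4% NaCl were also used. All of these rats carry the S genome outside the introgressed segment. The labels name the left kidney as the tissue, and its RNA came from all cell types together. The ends of the segments, the litters of the rats and the number of breeding pairs behind each strain were not stated.

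Dahl S rats develop high blood pressure when fed salt, and the kidney, which sets how much sodium leaves the body, carries much of that trait. A congenic strain replaces a chromosome segment of one strain by that of another, so that 2 congenic strains with different segments of the same donor differ, in principle, only at those segments. The ET3 strains were made for a blood pressure locus of rat chromosome 3 near Edn3, an endothelin gene that is not analysed here. The series was set up to find genes with altered activity in the ET3x2 region. The 2 congenic strains set against each other on low salt show where they differ before any salt load.

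The differences were small, and the balance of higher and lower calls changed with the scaling and the filter. Of the 15473 probe sets 422 were called (2.73%), meaning a limma adjusted p below 0.05 with no limit on fold. In ET3x2 154 were higher (0.995%) and 268 were lower (1.73%). The median absolute difference of the called probe sets was 0.36 on the log2 scale, and 7 exceeded 2-fold. Gatm, the enzyme gene of the first step of creatine synthesis, was 2.02-fold lower in ET3x2, and Cyp1a1, a xenobiotic-metabolising cytochrome P450 gene, was 1.84-fold higher. Without any adjustment 2494 probe sets had a p below 0.05. The groups did not overlap in 134 of the 154 higher and 228 of the 268 lower called probe sets, against 1478 of all 15473 (9.55%). Called probe sets were selected for a difference between these same rats, so that their lack of overlap was largely built in.

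A single gene symbol was paired with 337 of the called probe sets, for 332 genes, more than one with 14, and none with 71. The called genes had 140 other tested probe sets, of which 86 pointed the same way as the gene's probe set of smallest p. Only 4 genes had several called probe sets, and in all 4 these shared a direction. Of the 7 beyond 2-fold, COX1, Pgpep1 and Gatm have a symbol. The smallest adjusted p belonged to a RAE230A probe set without a symbol, which averaged 8.40 ± 0.11 in ET3x2 and 9.24 ± 0.10 in ET3x1 (SD, n = 4 each), a difference of -0.84 ± 0.10 (SE, limma adjusted p = 3.5e-05).

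Calls came almost wholly from one chip. RAE230A gave 397 of 7933 (5%) and RAE230B, which carries more of the less well annotated transcripts, 25 of 7540 (0.332%). On RAE230A the difference moved with brightness: with all probe sets cut by mean level into 4 equal bins, its median was 0.06 in both dimmer bins, 0.02 in the next and -0.08 in the brightest, where 29 were called higher and 192 lower. On RAE230B the medians of the 4 bins lay between -0.002 and 0.008. The array medians on RAE230A ran from 7.516 to 7.521 in ET3x2 and from 7.476 to 7.490 in ET3x1, without overlap (two-sided exact permutation test, p = 0.0286, the smallest possible with 4 against 4, and 0.286 adjusted over 10 quality measures). Quantile normalization, which gives all arrays of a chip one distribution, called 131 higher and 133 lower, and centring the array medians called 105 higher and 404 lower. Without the filter on dim probe sets 520 were called higher and 323 lower, which turned the balance. The share of higher calls was thus 36.5% as deposited, 49.6% after quantile normalization, 20.6% after centring and 61.7% without the filter.

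**Figure D1:**
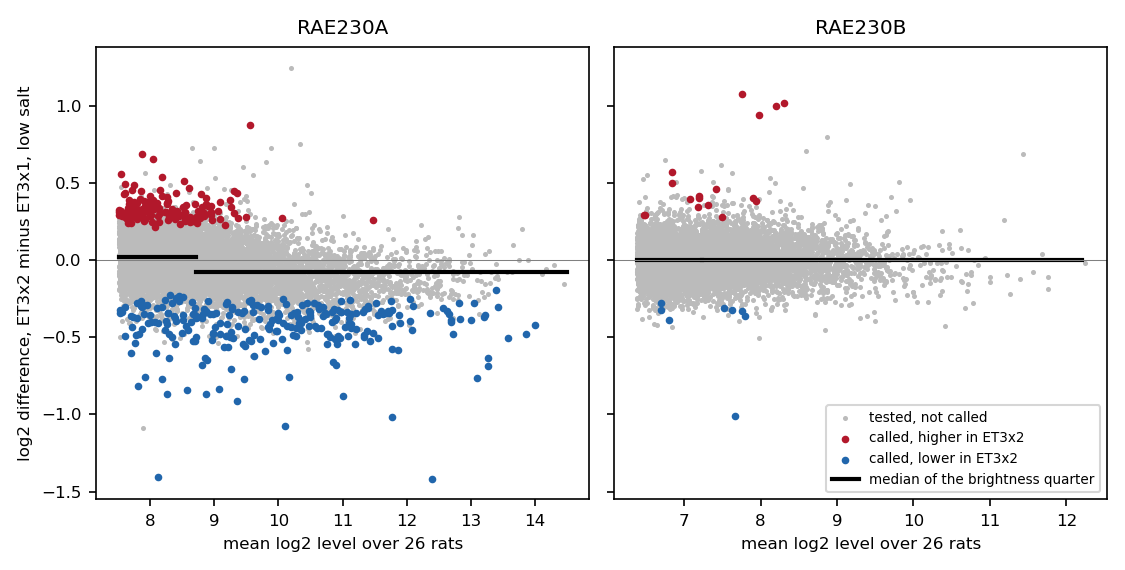
Difference between ET3x2 and ET3x1 on low salt (log2, vertical) against the mean log2 level over 26 rats (horizontal) for each tested probe set of RAE230A (left) and RAE230B (right). Red points are called higher and blue points called lower in ET3x2, and black bars mark the median difference of a brightness bin; on RAE230A the brightest bin sits at -0.08, and on RAE230B 25 points are called.

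Other signs of RNA and array quality overlapped between the groups. The Gapdh control ratio on RAE230A (3' over 5' signal, log2), a measure of RNA integrity, was 0.948 ± 0.067 in ET3x2 and 0.877 ± 0.099 in ET3x1 (SD, n = 4 each, exact permutation p = 0.229). For beta-actin this ratio was 1.05 ± 0.22 in ET3x2 and 1.22 ± 0.24 in ET3x1 (SD, n = 4 each, exact permutation p = 0.314). With the Gapdh ratio as a covariate 266 probe sets were called, 244 of them also called without it. Both chips share maintenance probe sets, of which 97 were tested and 5 called on RAE230A, and all 5 had the same direction on RAE230B with a smaller size, a median absolute difference of 0.28 on RAE230A and 0.066 on RAE230B. The part of brightness and chip in the results was not tested.

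The data rest on few rats. With 1 rat left out at a time, between 165 calls (without ET3x1 rat 3) and 445 (without ET3x2 rat 1) were made, with 188 without ET3x1 rat 4, 191 without ET3x2 rat 4, 236 without ET3x2 rat 2 and 256 without ET3x1 rat 1. A fit of the 8 rats alone called 110 probe sets, 96 of them among the 422.

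Gatm was the gene with the clearest difference. It encodes glycine amidinotransferase, which the proximal tubule uses to make guanidinoacetate, the precursor from which the liver makes creatine. Its log2 levels were 10.83, 10.84, 11.16 and 10.76 in the ET3x2 rats, against 11.95, 11.64, 12.06 and 12.002 in the ET3x1 rats. Every ET3x2 rat lay below every ET3x1 rat, with a gap wider than the range of either group, and the difference was -1.02 ± 0.13 (SE, limma adjusted p = 8.7e-05). It kept its call in every fit with a rat left out (-1.11 to -0.97) and in all 11 other settings (-1.14 to -0.87). A second Gatm probe set, on RAE230B, differed by 0.10 ± 0.09 (limma adjusted p = 0.634). Slc16a12, which encodes a creatine transporter of the kidney, was lower as well, at 9.52, 9.36, 9.84 and 9.48 in ET3x2, against 10.27, 10.02, 10.58 and 10.38 in ET3x1 (-0.76 ± 0.15, limma adjusted p = 0.0072), although its second probe set differed by 0.08 ± 0.23.

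The promoter of Gatm is shown because this gene separates the strains most clearly and lies on chromosome 3, the chromosome of the ET3 locus. In the order of the 669 tested genes of that chromosome Gatm is number 373, and of the last 100 of them 0 were called. Promoters of Sik1 and Per3, both higher in ET3x2 and both described below, are shown with the half-site of the cAMP response element. These are RefSeq sequences of GRCr8, 250 bases before to 50 after the annotated start, on the strand of the gene. Capitals mark the 50 transcribed bases in Gatm (chr3:130129044-130129343, minus strand) and the letters TGACG or, on the other strand, CGTCA in Sik1 (chr20:9958597-9958896, minus strand) and Per3 (chr5:166777751-166778050, minus strand).
Gatm: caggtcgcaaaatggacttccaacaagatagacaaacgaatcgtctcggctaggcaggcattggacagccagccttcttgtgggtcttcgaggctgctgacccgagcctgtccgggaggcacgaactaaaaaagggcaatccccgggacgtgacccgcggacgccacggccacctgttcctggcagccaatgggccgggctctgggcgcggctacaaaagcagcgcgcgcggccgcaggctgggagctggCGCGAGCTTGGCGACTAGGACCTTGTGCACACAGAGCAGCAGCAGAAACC
Sik1: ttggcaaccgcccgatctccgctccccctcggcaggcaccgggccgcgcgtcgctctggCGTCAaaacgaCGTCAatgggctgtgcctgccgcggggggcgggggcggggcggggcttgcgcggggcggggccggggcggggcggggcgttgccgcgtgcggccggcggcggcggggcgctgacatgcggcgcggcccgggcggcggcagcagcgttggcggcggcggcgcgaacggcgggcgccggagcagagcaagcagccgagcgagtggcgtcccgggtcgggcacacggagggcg
Per3: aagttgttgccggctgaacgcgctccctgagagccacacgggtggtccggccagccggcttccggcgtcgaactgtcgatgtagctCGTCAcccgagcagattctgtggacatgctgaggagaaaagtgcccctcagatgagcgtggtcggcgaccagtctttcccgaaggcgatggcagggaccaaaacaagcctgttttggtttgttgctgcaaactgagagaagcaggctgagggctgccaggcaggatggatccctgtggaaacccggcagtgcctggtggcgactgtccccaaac
The half-site occurred 2 times in the Sik1 window, 1 time in the Per3 window and 0 times in that of Gatm, and 22% of 27457 promoters of this length hold it on either strand. The full element TGACGTCA, held by 1.91%, and the E-box CACGTG, the binding letters of the clock's CLOCK and BMAL1 proteins, held by 6.65%, were in none of the 3 windows. Of 80 named genes 65 matched an entry of the promoter table. A match of letters is a description and not a binding site.

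Among the genes with the largest rises in ET3x2, Peli2 and Cyp1a1 led. Peli2 encodes a ubiquitin ligase of Toll-like and interleukin-1 receptor signalling and had log2 levels of 7.60, 7.99, 8.29 and 8.33 in ET3x2, against 7.43, 6.80, 7.25 and 6.97 in ET3x1 (0.94 ± 0.20, limma adjusted p = 0.0114). Its call ended without ET3x2 rat 4 (0.84 to 1.09 over the 8 fits with a rat left out), and its second probe set differed by -0.14 ± 0.06. Cyp1a1 stood at 10.00, 9.67, 10.12 and 9.71 in ET3x2, against 8.99, 9.01, 9.04 and 8.96 in ET3x1, so that the ET3x1 rats were nearly equal and all ET3x2 rats were higher (0.88 ± 0.17, limma adjusted p = 0.0061). Cyp1a1 is the classic target of the aryl hydrocarbon receptor. Neither rise was seen in the other 8 rats on high salt, with -0.12 ± 0.20 for Peli2 and -0.002 ± 0.17 for Cyp1a1. The change with diet was not called in either gene (limma adjusted p = 0.0919 for Peli2 and 0.0925 for Cyp1a1).

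The other 10 named higher genes had smaller differences. Sik1, for salt-inducible kinase 1, a kinase that restrains cAMP-driven transcription, had log2 levels of 8.12, 8.17, 8.23 and 8.34 in ET3x2, against 7.67, 7.83, 7.84 and 7.73 in ET3x1 (0.45 ± 0.07, limma adjusted p = 0.0011). Tob2, which encodes an antiproliferative protein that recruits mRNA deadenylases, had 8.95, 9.08, 9.30 and 8.88, against 8.38, 8.59, 8.67 and 8.54 (0.51 ± 0.09, limma adjusted p = 0.0041). In both genes the groups were apart, and both calls held with any rat left out. Noct, for the rhythmically expressed phosphatase nocturnin (0.46 ± 0.10), Zbtb18, a zinc finger repressor (0.45 ± 0.10), and Nek9, a kinase of mitosis (0.49 ± 0.11), rose too, and each lost its call without 1 rat (ET3x1 rat 4 for Noct, ET3x2 rat 4 for Zbtb18, ET3x1 rat 3 for Nek9). Ngb, for the globin neuroglobin (0.54 ± 0.10), Nup188, a scaffold of the nuclear pore (0.47 ± 0.08), and Lrch4 (0.44 ± 0.09) kept theirs. Slc2a1, the glucose transporter GLUT1, rose by 0.45 ± 0.11 (0.39 to 0.51 with a rat left out) and lost its call without ET3x2 rat 2 or 4 or ET3x1 rat 2 or 3. The RNA-binding protein gene Hnrnpu rose by 0.45 ± 0.12 at 1 probe set, while 2 others differed by -0.28 ± 0.11 and -0.31 ± 0.09 without a call, and the second probe sets of Zbtb18 (-0.27 ± 0.11) and Nek9 (-0.12 ± 0.07) also pointed down. The call of Hnrnpu ended in 6 fits with a rat left out. It also ended after quantile normalization, with the Gapdh ratio as a covariate and in the fit of the 8 rats alone.

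**Figure D2:**
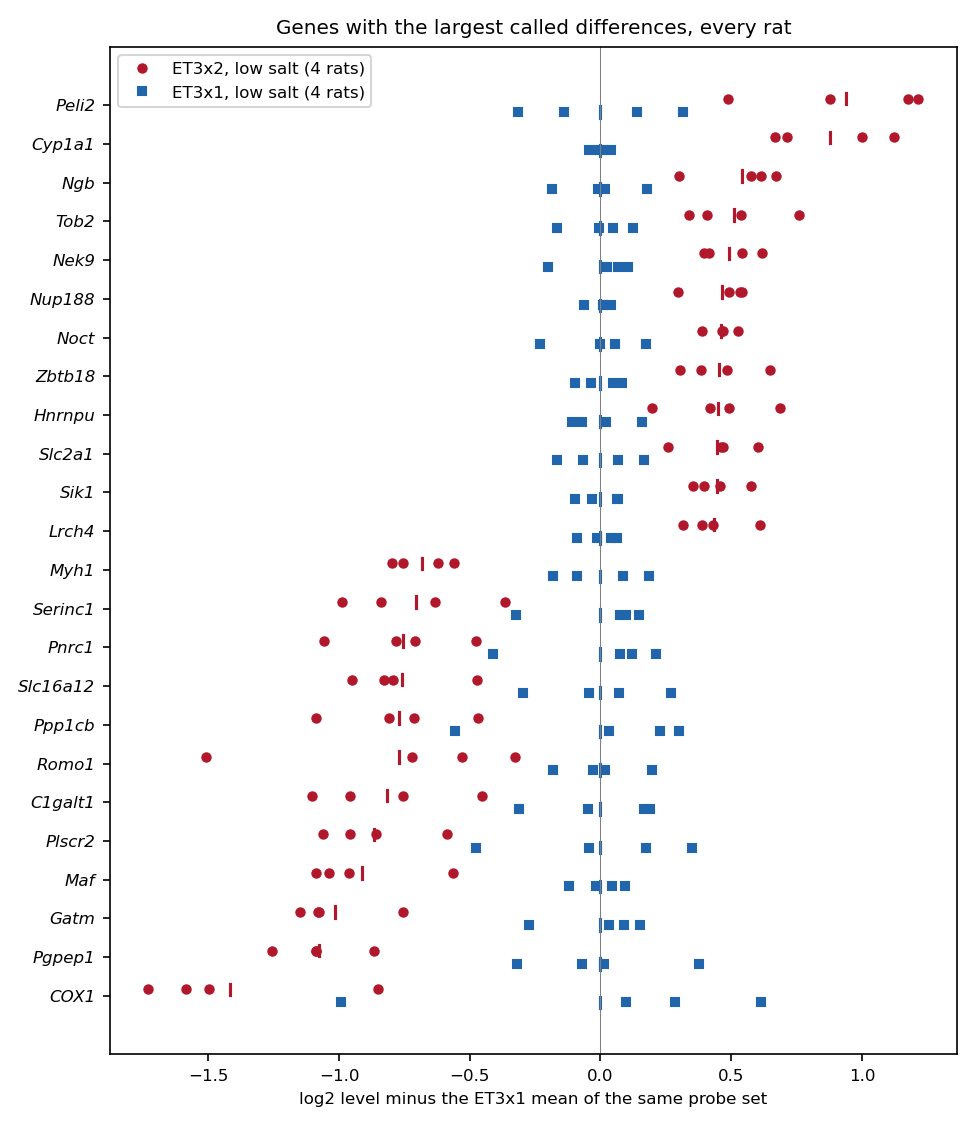
Log2 level of each rat minus the ET3x1 mean of the same probe set, for the 12 genes with the largest called difference each way. Red circles are the 4 ET3x2 rats and blue squares the 4 ET3x1 rats on low salt, with short bars at the group means; Gatm, Maf and Cyp1a1 show a clear gap, whereas for COX1 and Ppp1cb the groups overlap.

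Maf and Pgpep1 fell about as far as Gatm, again without overlap. Maf, a leucine zipper transcription factor gene, had log2 levels of 8.57, 8.49, 8.96 and 8.44 in ET3x2, against 9.51, 9.41, 9.62 and 9.57 in ET3x1 (-0.91 ± 0.16, limma adjusted p = 0.0031), and its second probe set differed by -0.30 ± 0.16. Pgpep1, for a peptidase that removes pyroglutamate from peptides, had 9.60, 9.43, 9.83 and 9.60, against 10.37, 10.62, 11.07 and 10.70 (-1.07 ± 0.16, limma adjusted p = 0.0009). The Pgpep1 probe set is of a kind whose probes may also match other transcripts, marked by _x_at in its name. Romo1, a mitochondrial membrane protein gene, fell by 0.77 ± 0.16 on the log2 scale, with ET3x2 rat 3 at 8.44 below the other ET3x2 rats at 9.23 to 9.62 and the ET3x1 rats at 9.77 to 10.14. Plscr2 (a phospholipid scramblase, -0.87 ± 0.15), C1galt1 (the enzyme of core 1 O-glycans, -0.82 ± 0.19), Pnrc1 (a nuclear receptor coactivator, -0.76 ± 0.15) and Serinc1 (-0.71 ± 0.15) fell without overlap, and Ppp1cb, a catalytic subunit of protein phosphatase 1, fell by 0.77 ± 0.16 with an overlap. Of the 12 genes that fell furthest, C1galt1 alone lost its call with a rat left out (ET3x2 rat 2 or 4, ET3x1 rat 3 or 4; -0.94 to -0.72).

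The annotation pairs 5 probe sets with Myh1, a skeletal muscle myosin gene, at mean log2 levels of 7.89 to 11.6. All 5 differed downward in ET3x2, by -1.09 to -0.30, and 3 were called, the first of them at 10.47, 10.30, 10.34 and 10.53 in ET3x2, against 11.00, 10.91, 11.28 and 11.18 in ET3x1 (-0.68 ± 0.10, limma adjusted p = 0.000609). Other genes of skeletal muscle, chosen after these values were seen, did not accompany that level: Acta1, Ckm, Tnnc2, Myl1 and Tnnt3 all lay below the brightness filter, with Ckm at 6.17 in ET3x2 and 5.93 in ET3x1. Which transcript these probe sets measure in the kidney cannot be told from the files.

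Transcripts of mitochondrial respiration were lower in part. The mitochondrial genome encodes core subunits of the respiratory chain, and nuclear genes encode the rest. Both tested mitochondrially encoded transcripts fell. COX1, a subunit of cytochrome c oxidase, had log2 levels of 11.49, 11.72, 12.37 and 11.63 in ET3x2, against 13.50, 12.22, 13.83 and 13.31 in ET3x1 (-1.42 ± 0.26, limma adjusted p = 0.0039), with ET3x1 rat 2 below ET3x2 rat 3. COX2, another subunit of that oxidase, had 13.55, 13.46, 13.76 and 13.75, against 14.12, 13.80, 14.27 and 14.03 (-0.42 ± 0.09, limma adjusted p = 0.0116), and lost its call without ET3x2 rat 2 or ET3x1 rat 3 (-0.51 to -0.35). The call of COX1 held with any rat left out.

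Of 74 nuclear subunits of oxidative phosphorylation 3 fell and 0 rose, against 194 and 102 of all 8825 tested genes by their brightest probe set (3.35% called, 2.2% lower and 1.16% higher). Ndufb5 (-0.49 ± 0.08, limma adjusted p = 0.0028) and Ndufb6 (-0.31 ± 0.08) encode subunits of complex I and Cox6a1 (-0.34 ± 0.09) one of complex IV. Of the 74, 65 were below 0, and the median was -0.15 against -0.02 for all genes. After quantile normalization the median of the 74 was 0.001 with 1 gene called, and after centring the array medians it was -0.18 with 8 called lower. The medians of all genes were then -0.0005 and -0.04. Ndufb5 remained called with every rat left out and in all 11 other settings, whereas Ndufb6 and Cox6a1 each lost their calls in 7 of the 8 fits with a rat left out. Of 41 cytosolic ribosomal protein genes 4 fell, Rpl13a (-0.51 ± 0.09), Rps29 (-0.35 ± 0.06), Rps15a (-0.35 ± 0.10) and Rpl39 (-0.35 ± 0.08). The list median of -0.09 turned to 0.05 after quantile normalization and was -0.12 after centring. Rps15a lost its call in 6 fits with a rat left out, and Rpl39 without ET3x2 rat 2. Of 40 splicing factors and hnRNPs, which bind nuclear RNA, 2 fell, Hnrnpr (-0.41 ± 0.12) and Hnrnpc (-0.30 ± 0.08), with a median of -0.06, and both lost their calls in 6 or more fits with a rat left out. No proteasome subunit of 37 was called at an adjusted p, and Psmd13 came closest (-0.30 ± 0.09, limma adjusted p = 0.0656).

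Genes of defence against oxidants and of amino acid breakdown were called in both directions. Cat, for catalase, which breaks down hydrogen peroxide, had log2 levels of 11.09, 11.20, 11.37 and 11.24 in ET3x2, against 11.90, 11.56, 11.89 and 11.86 in ET3x1 (-0.58 ± 0.12, limma adjusted p = 0.009). Gclm, the modifier subunit of the enzyme that starts glutathione synthesis, had 10.70, 10.98, 11.30 and 10.91, against 11.57, 11.28, 11.58 and 11.56 (-0.53 ± 0.12, limma adjusted p = 0.0195), where ET3x2 rat 3 lay above ET3x1 rat 2. Srxn1, for sulfiredoxin, which repairs oxidised peroxiredoxins, moved the other way, with 8.34, 8.46, 8.57 and 8.36, against 8.15, 7.94, 8.01 and 7.97 (0.41 ± 0.08, limma adjusted p = 0.007). Thus 1 of 24 antioxidant and glutathione genes rose and 2 fell, beside 1.16% higher and 2.2% lower of all tested genes. The list median of -0.15 was -0.02 after quantile normalization, where Cat and Gclm were not called and the list had 2 genes higher and 0 lower. After centring the median was -0.19, with 1 gene higher and 3 lower. Gclm also lost its call in 5 fits with a rat left out (-0.64 to -0.44), and Cat and Srxn1 in none.

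Beside this list and those that follow, 3.35% of all tested genes were called. Of 32 genes of amino acid breakdown and creatine synthesis 1 rose and 3 fell (median -0.08, with 0.03 after quantile normalization and -0.11 after centring). Beside Gatm these were Prodh, the proline dehydrogenase gene, at 9.18, 9.18, 8.87 and 9.06 in ET3x2, against 8.58, 8.71, 8.76 and 8.80 in ET3x1 (0.36 ± 0.08, limma adjusted p = 0.0143), Aldh6a1 (-0.47 ± 0.12) and Hibadh (-0.36 ± 0.08), both enzymes of valine breakdown. Prodh lost its call without ET3x2 rat 2 or ET3x1 rat 1, and Aldh6a1 and Hibadh lost theirs in 6 and 4 fits with a rat left out. Of 18 genes of fatty acid oxidation Acot1, an acyl-CoA thioesterase gene, fell (-0.48 ± 0.10, limma adjusted p = 0.0089) and 0 rose. Of 12 hypoxia-responsive genes Slc2a1 rose and Ndrg1 fell, Ndrg1 having 12.25, 12.42, 12.46 and 12.09 in ET3x2, against 12.84, 12.74, 12.81 and 12.74 in ET3x1 (-0.48 ± 0.10, limma adjusted p = 0.0114). Ndrg1 lost its call without ET3x2 rat 4 and also after quantile normalization. No call was made among 17 genes of cholesterol synthesis, 8 of gluconeogenesis and ammonia production, and 10 of arachidonic acid P450 enzymes and epoxide hydrolases. Their members of smallest p were Ebp (0.24 ± 0.10), Got1 (0.36 ± 0.11, limma adjusted p = 0.0661, called in 1 fit with a rat left out) and Cyp4a8 (-0.29 ± 0.09, limma adjusted p = 0.0762).

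Clock genes leaned upward as a list. The circadian clock is a loop of transcription factors and their repressors that runs in kidney cells as in others, and outputs such as Hlf are read out by it. Of 12 tested members 2 rose, 0 fell and 11 were above 0, with a median of 0.26 against -0.02 for all genes and 3809 of 8825 genes above 0. The median was 0.27 after quantile normalization and 0.25 after centring. Per3, a repressor of the loop, had log2 levels of 8.03, 8.14, 8.17 and 8.09 in ET3x2, against 7.47, 7.78, 7.89 and 7.75 in ET3x1 (0.38 ± 0.11, limma adjusted p = 0.0444), and Hlf, an output transcription factor, had 7.94, 8.37, 8.25 and 8.16, against 7.82, 7.85, 7.81 and 7.91 (0.33 ± 0.09, limma adjusted p = 0.0343). In both the groups did not overlap, but Per3 lost its call in all 8 fits with a rat left out (0.30 to 0.44) and Hlf in 7 (0.27 to 0.41). Per1, another repressor of the loop and a glucocorticoid target, had 9.63, 9.64, 9.63 and 9.70, against 9.04, 9.16, 9.39 and 9.19 (0.46 ± 0.15, limma adjusted p = 0.102), again without overlap and without a call. The hour at which each rat was killed was not stated, and its part in these levels was not tested.

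Immediate early genes, glucocorticoid targets and chaperones had no call, beside 3.35% of all tested genes, a share at which lists this short can hold 0 calls. Egr1, an immediate early gene, varied widely, with 9.0, 7.82, 8.42 and 9.27 in ET3x2, against 7.83, 8.15, 8.56 and 8.04 in ET3x1 (0.49 ± 0.28, limma adjusted p = 0.403), and the groups overlapped. None of 11 immediate early genes, 10 glucocorticoid targets and 19 heat shock proteins and chaperones passed the threshold; Ahsa1, a co-chaperone gene, had the smallest p of the last (-0.37 ± 0.14). Of 14 genes of DNA replication and cell division Mcm3, a subunit of the replicative helicase, came closest (0.28 ± 0.09, limma adjusted p = 0.0736).

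**Figure D3:**
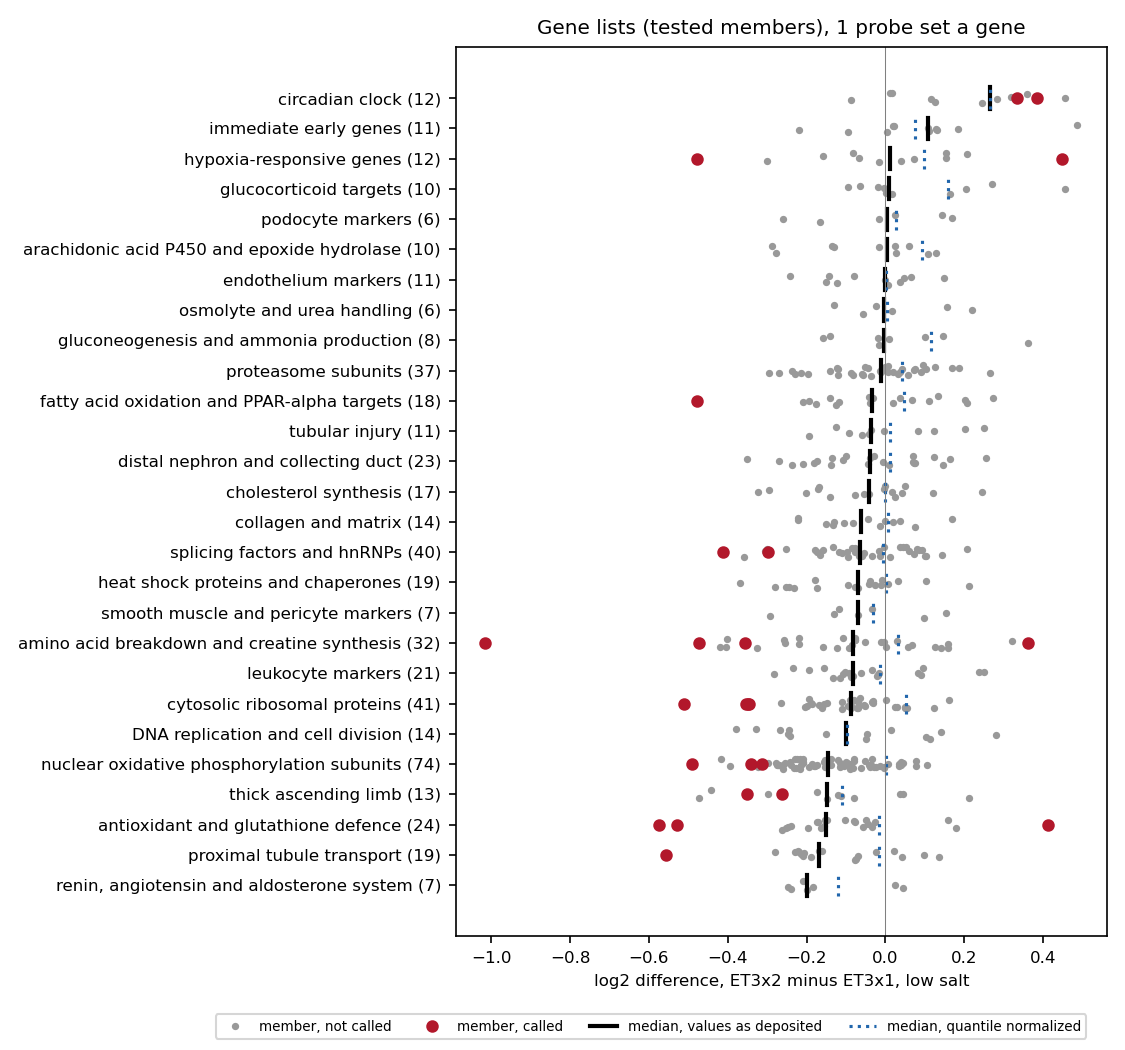
Difference between ET3x2 and ET3x1 on low salt (log2, horizontal) for each tested member of the gene lists with more than 5 tested members, 1 probe set a gene, with the number tested in brackets. Grey points are not called and red points are called, black bars are list medians and blue dotted bars the medians after quantile normalization; the clock median stays near 0.26 while that of oxidative phosphorylation subunits moves to about 0.

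Calls among tubule genes fell in 2 lists, beside 3.35% of all tested genes. The thick ascending limb reabsorbs sodium chloride without water, and of its 13 tested genes 2 fell and 0 rose. Fxyd2, the gamma subunit of the sodium pump, had log2 levels of 12.66, 12.49, 12.35 and 12.23 in ET3x2, against 12.70, 12.75, 12.91 and 12.78 in ET3x1 (-0.35 ± 0.08, limma adjusted p = 0.0206). Cldn10, a claudin of the paracellular sodium path, had 10.93, 10.98, 10.86 and 10.72, against 11.07, 11.03, 11.21 and 11.23 (-0.26 ± 0.07, limma adjusted p = 0.0441). The groups did not overlap, yet their nearest rats were almost level. Both genes lost their calls after quantile normalization, and Fxyd2 lost its call in 4 and Cldn10 in 5 fits with a rat left out. Of 19 proximal tubule transport genes Slc16a1, for a lactate and pyruvate transporter, fell, at 9.09, 9.16, 9.10 and 9.09 in ET3x2, against 9.72, 9.46, 9.71 and 9.79 in ET3x1 (-0.56 ± 0.13, limma adjusted p = 0.0172; lost without ET3x2 rat 4, ET3x1 rat 3 or ET3x1 rat 4). The list's median of -0.17 was -0.02 after quantile normalization and -0.20 after centring. Of 23 genes of the distal nephron and collecting duct none was called, Scnn1g, a subunit of the epithelial sodium channel, being nearest with 8.47, 8.47, 8.60 and 8.70, against 8.37, 8.28, 8.33 and 8.24 (0.26 ± 0.07, limma adjusted p = 0.0581; called in 1 fit with a rat left out). Nfat5, the transcription factor of the osmotic response, differed by 0.22 ± 0.10 (limma adjusted p = 0.288), and none of 6 genes of osmolyte and urea handling was called.

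None of the few tested genes of the renin, angiotensin and aldosterone system or the endothelin system was called, beside 3.35% of all tested genes. At that share a list this short can hold 0 calls whatever its genes. Of 7 tested genes of the renin, angiotensin and aldosterone system Enpep, the peptidase that turns angiotensin II into angiotensin III, came closest, with 9.91, 10.00, 9.84 and 9.93 in ET3x2, against 10.19, 10.00, 10.21 and 10.26 in ET3x1 (-0.25 ± 0.08, limma adjusted p = 0.11), so that the nearest rats were almost level. Sgk1, an aldosterone-induced kinase gene, had 10.32, 10.48, 10.54 and 10.09, against 9.82, 9.73, 10.59 and 10.64 (0.16 ± 0.19, limma adjusted p = 0.734), with 2 ET3x1 rats below and 2 above every ET3x2 rat. Agt, the angiotensinogen gene, lay below the filter and without it had 7.54, 7.62, 7.11 and 7.72, against 7.16, 7.60, 7.35 and 7.34 (0.14 ± 0.13, limma adjusted p = 0.635). Ece1, the endothelin-converting enzyme gene and the single tested member of the endothelin system, differed by 0.08 ± 0.07 (limma adjusted p = 0.643).

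Markers of cell types were used to check the tissue and its makeup. All chosen markers of the proximal tubule, thick ascending limb, distal tubule and collecting duct were bright enough to be tested, with Slc34a1, the proximal tubule's phosphate transporter, at 13.1 in ET3x2 and 13.3 in ET3x1, and Umod, a protein of the thick ascending limb, at 13.3 in ET3x2 and 13.4 in ET3x1. All of these tubule markers averaged lower in ET3x2, the widest gap being that of Slc12a1 of the thick ascending limb (9.01 in ET3x2 and 9.45 in ET3x1). Adiponectin (Adipoq), Plin1 and Fabp4 of adipocytes and Cyp11b1 and Star of the adrenal cortex lay below the filter, while 2 genes of each of the longer lists for these cells were tested. No member of the lists for podocytes (6 tested), endothelium (11), smooth muscle and pericytes (7), leukocytes (21), red cells (4), adrenal cortex (2) or adipocytes (2) was called, nor any of 11 genes of tubular injury or 14 of collagen and matrix. Of all tested genes 3.35% were called, a share at which lists of this size can hold 0 calls. The mean log2 level over the leukocyte markers ran from 8.75 to 9.10 in ET3x2 and from 8.93 to 9.06 in ET3x1, and over the podocyte markers from 8.57 to 8.65 in ET3x2 and from 8.53 to 8.74 in ET3x1. Over the thick ascending limb list it ran from 10.15 to 10.26 in ET3x2 and from 10.27 to 10.49 in ET3x1, without overlap. The proximal tubule list did not overlap either (10.90 to 11.01 in ET3x2 and 11.03 to 11.15 in ET3x1). That of the distal nephron and collecting duct did (9.41 to 9.45 in ET3x2 and 9.41 to 9.51 in ET3x1). Members with the smallest p in these lists were Tcf21 (podocytes, -0.26 ± 0.13), Plvap (endothelium, -0.24 ± 0.10), Acta2 (smooth muscle, -0.29 ± 0.11), Cd53 (leukocytes, 0.25 ± 0.10), Klf1 (red cells, -0.14 ± 0.10), Cyp11a1 (adrenal cortex, 0.26 ± 0.10), Lpl (adipocytes, 0.23 ± 0.08), Cd44 (injury, 0.12 ± 0.06) and Col6a1 (matrix, 0.17 ± 0.08). In RNA of a whole kidney, fewer cells of a type and less RNA per cell cannot be told apart. Lack of overlap in mean list level was not particular to tubule lists. It also held for the antioxidant, amino acid breakdown and arachidonic acid P450 lists, lower in ET3x2, and for clock genes and adipocyte markers, higher in ET3x2. After quantile normalization the median difference was -0.11 for the thick ascending limb list and -0.02 for the proximal tubule list. The part of scaling in these levels was not tested.

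Whether the strain difference was also present on high salt was read from the other 8 rats, 4 of each strain, after 24 hours on 4% NaCl. There limma called 1427 probe sets (9.22%). Of the 422 called on low salt 340 pointed the same way on high salt (80.6%), against 59.9% of all tested probe sets, and 50 were called the same way on both diets and 2 in opposite directions. The 50 were 11.8% of the low salt calls and 3.5% of the high salt calls. They became 3 with the Gapdh ratio as a covariate in both comparisons, 7 with the bioD minus bioC spike-in difference, 31 with adjustment within each chip, 23 among the brightest 25% of probe sets and 138 with array weights. With array weights the calls in opposite directions rose to 55. Of the low salt calls 64.6% then pointed the same way on high salt, against 53.1% of all tested probe sets. Over all 15473 tested probe sets 1041 (6.73%) were called on high salt in the direction of their low salt difference and 386 in the opposite one. Both comparisons used the same estimate of a probe set's spread, so that its 2 calls were not independent. On high salt the median difference of the 154 higher probe sets was 0.12 and of the 268 lower ones -0.11, beside 0.325 and -0.39 on low salt, where they had been selected. The 1427 calls on high salt became 273 with the Gapdh ratio as a covariate and 83 with the bioD minus bioC difference, and the cause was not tested. As deposited 849 were higher and 578 lower, and centring the array medians turned this balance, with 575 higher and 711 lower.

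Gatm differed by -1.02 on low salt and by -0.75 on high salt (limma adjusted p = 0.0016 on high salt). Cat (-0.58 on low and -0.43 on high salt), Gclm (-0.53 and -0.49) and Serinc1 (-0.71 and -0.48) were also lower on both diets. RT1-A, a class I antigen-presenting gene, was lower on both diets, with 7.17, 7.16, 7.46 and 7.56 in ET3x2 on low salt, against 8.17, 7.85, 7.72 and 7.59 in ET3x1 (-0.50 and -0.47), the nearest rats of the 2 groups being almost level. Dag1, for the matrix receptor dystroglycan, was lower too (-0.48 and -0.42), though another of its 3 probe sets differed by 0.10 on low salt. Higher on both diets were Prodh (0.36 and 0.36), Tob2 (0.51 and 0.42), Per3 (0.38 and 0.34), the origin recognition gene Orc2 (0.41 and 0.34), the exchange factor gene Rasgef1b (0.37 and 0.40) and Limk2, a kinase of the actin cytoskeleton (0.38 and 0.35). The call of RT1-A ended without ET3x2 rat 1 or 2 or ET3x1 rat 1 (-0.58 to -0.38), that of Dag1 without ET3x2 rat 4 or ET3x1 rat 1, that of Limk2 without ET3x2 rat 4 or ET3x1 rat 1 or 3, that of Rasgef1b without ET3x1 rat 1, and that of Orc2 in none of these fits.

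**Figure D4:**
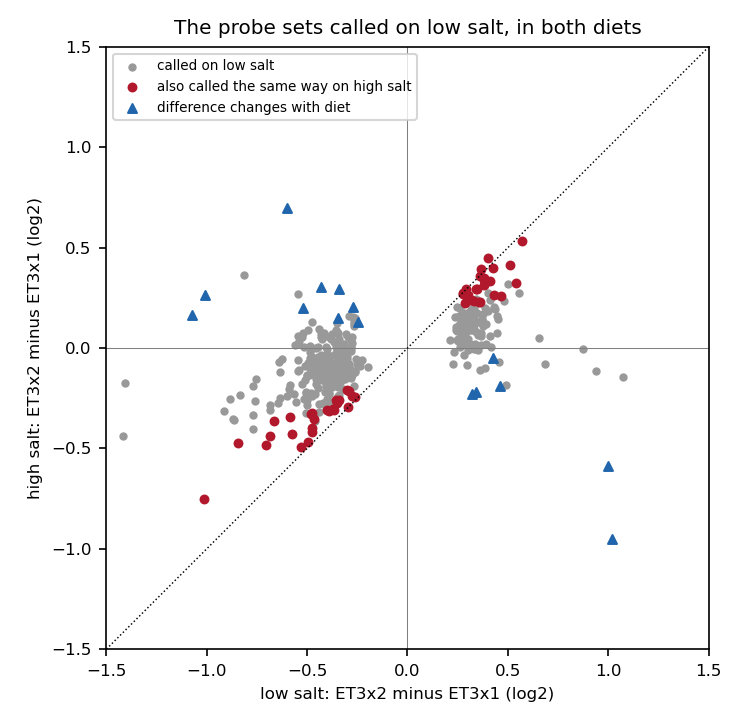
The 422 probe sets called on low salt, with the difference between ET3x2 and ET3x1 on low salt (log2, horizontal) against the same difference in the other 8 rats on high salt (log2, vertical), and equality as a dotted line. Red points were also called the same way on high salt (50) and blue triangles changed with diet (15). Most grey points lie nearer to 0 on high salt than on low salt, where they were selected, so that this is largely built in. The absolute difference was larger on low salt in 99.1% of the 422, against 43.4% of all tested probe sets.

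For 47 probe sets (0.304%) the strain difference itself changed with diet, 28 with a more positive value on low salt and 19 with a more negative one, and 15 of the 47 were among the 422. Erbin, which encodes a scaffold protein of the cell's basal side, was lower in ET3x2 on low salt, at 7.81, 7.86, 8.09 and 7.82, against 8.41, 8.22, 8.76 and 8.58 in ET3x1, and higher by 0.70 ± 0.16 on high salt, a change of -1.30 (limma adjusted p = 0.0305). Its second probe set did not follow, with 0.06 ± 0.12 on low salt. The low salt call of Erbin ended in 6 fits with a rat left out (-0.69 to -0.51). Pgpep1 (-1.07 on low and 0.16 on high salt), Irf2bp2, a corepressor gene (-0.52 and 0.20), and Psenen, a subunit of gamma-secretase (-0.35 and 0.15), were lower on low salt. Crem, a modulator of cAMP-responsive transcription (0.34 and -0.22), Khdrbs1, an RNA-binding protein gene (0.32 and -0.23), and Noct (0.46 and -0.19) were higher. Limma adjusted p-values of these changes lay between 0.0305 and 0.0481. The count of 47 depended on single rats, and without any adjustment 2302 probe sets had a p below 0.05. It was 0 without ET3x2 low salt rat 2, ET3x1 low salt rat 3, ET3x2 high salt rat 2 or ET3x1 high salt rat 3. It was 361 without ET3x1 low salt rat 1, 114 without ET3x2 high salt rat 4, 39 without ET3x2 high salt rat 1, 45 without ET3x1 high salt rat 1, and between 2 and 31 without any other single rat.

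The S rats on low salt show on which side each congenic strain stood. Against these 5 rats, which both comparisons share, limma called 2817 probe sets in ET3x2 (18.2%) and 4150 in ET3x1 (26.8%). Of the 154 probe sets higher in ET3x2 than in ET3x1, ET3x2 alone differed from S in that direction in 74, ET3x1 alone in the opposite direction in 59, both in 0 and neither in 21. Of the 268 lower ones these counts were 145, 89, 3 and 31. These probe sets were selected for a difference between the same congenic rats. That at least 1 strain differed from S in most of them was therefore largely built in. Gatm averaged 10.90 ± 0.18 in ET3x2 and 11.91 ± 0.19 in ET3x1 (SD, n = 4 each), and 11.99 ± 0.19 in S (SD, n = 5). Maf (8.62, 9.53 and 9.48 in the same order), Cat (11.23, 11.80 and 11.93) and Sik1 (8.22, 7.77 and 7.86) likewise had ET3x1 near S. Peli2 was the other way, with ET3x2 at 8.05 ± 0.34, ET3x1 at 7.11 ± 0.28 and S at 8.47 ± 0.46, and so was Per3 (8.11, 7.72 and 8.32). Cyp1a1 averaged 9.88 ± 0.22 in ET3x2, 9.0 ± 0.03 in ET3x1 and 9.60 ± 0.30 in S, and was called for ET3x1 against S (-0.60, limma adjusted p = 0.0088) and not for ET3x2 against S (0.28, limma adjusted p = 0.242).

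Along the genome the calls did not gather on chromosome 3. Of 8786 genes with a chromosome 329 had a called probe set (3.74%), and on chromosome 3 these were 26 of 669 (3.89%), 9 higher and 17 lower in ET3x2. Shares on the other chromosomes ran from 2.46% on chromosome 16 to 6.14% on the X. Gatm, Cat, Romo1, Srxn1 and Nup188 are among them, spread along its gene order, and Romo1 is the called gene nearest to its end. Of the last 100 of its genes with a tested probe set, in RefSeq order from Ada to Polr3k, limma called 0 on low salt, with a median difference of 0.02. Rtel1, a DNA helicase gene among them and 11 from the end, had 8.11, 8.38, 7.99 and 8.31 in ET3x2, against 7.99, 7.96, 7.97 and 8.04 in ET3x1 (0.21 ± 0.08, limma adjusted p = 0.151). It was called in 1 fit with a rat left out and was called on high salt (0.26 ± 0.08, limma adjusted p = 0.0312). Both strains stood above S in this gene, by 1.02 in ET3x2 and 0.82 in ET3x1.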

How the data were processed

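Left kidney RNA of 26 rats was measured on Affymetrix RAE230A and RAE230B, 1 array of each per rat. The authors summarised the probes of each probe set into 1 value per array and deposited these as log2 values, a scale read from their range (4.109 to 14.69 on RAE230A, 3.4 to 13.44 on RAE230B); how they summarised and normalized them is not given in the sources used. Samples were grouped by strain and diet from the titles, and a rat's chips were joined by animal number. The number of arrays limits the precision.

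Probe sets at or above the chip's median of mean levels (7.507 and 6.381) were tested, and of 100 maintenance probe sets on both chips those of RAE230A were used. Limma 3.58.1 in R 4.3.3 fitted 6 groups with an intensity trend and 20 residual degrees of freedom, and p-values were adjusted by Benjamini and Hochberg over both chips. Quality measures had exact permutation tests (scipy 1.17.1). The fit was tested on simulated data. Symbols come from the platform annotation. Each array holds the RNA of 1 rat, per the labels. Replicates of a group correlated at 0.9877 or above on RAE230A and 0.9839 or above on RAE230B, with no duplicates.

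Named genes were the 12 with the largest called difference each way, 6 each way called on both diets, 6 with the smallest p for a change with diet, up to 4 called members of each of 32 gene lists or, where none was called, the member of smallest p, and Sgk1, Agt and Rtel1. A gene list used the brightest probe set of a gene. The members and lists were chosen with earlier results of these data known. Alternatives were other scalings, filters, variance models, quality covariates and left-out rats. The scalings of the gene lists, the alternatives for single named genes and the reading of Agt without the filter were chosen after seeing the data.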

Additional observations from a re-analysis of the deposited data

Results flagged for a closer look

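In 7 of 160 groups of 4 rats, 1 rat stood apart from the other 3, measured as its gap to the nearest rat over the range of the group; chance alone marks about 5% of groups, or 1 in 20. In ET3x2 these were Ahsa1 (ratio 0.838, rat 3 at 8.519 and the others at 9.127 to 9.245), Ece1 (0.884, rat 3 at 8.488 and the others at 8.644 to 8.665) and Per1 (0.869, rat 4 at 9.701 and the others at 9.629 to 9.638). In ET3x1 they were Cat (0.879, rat 2 at 11.56 and the others at 11.86 to 11.9), Gclm (0.936, rat 2 at 11.28 and the others at 11.56 to 11.58), Lpl (0.917, rat 2 at 7.788 and the others at 8.043 to 8.066) and Serinc1 (0.846, rat 2 at 9.043 and the others at 9.441 to 9.513). All 4 of the ET3x1 cases were rat 2, which was the lowest in each.

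For 7 named genes the difference between ET3x2 and ET3x1 itself differed between the diets by limma's interaction contrast, low minus high salt. It was more positive on low salt for Crem (0.5605), Khdrbs1 (0.5501) and Noct (0.6483). It was more negative for Erbin (-1.299), Pgpep1 (-1.238), Irf2bp2 (-0.7213) and Psenen (-0.4928). None of these 7 calls was kept in the fits without ET3x2 low salt rat 2, ET3x1 low salt rat 3, ET3x2 high salt rat 2 or ET3x1 high salt rat 3, in which limma made 0 calls.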

How the results depend on the processing

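Of 57 named genes called on low salt, 24 kept the call with any rat left out, 24 under every other setting run and 18 under both. With 8 rats of interest, 1 rat moved the number of calls on low salt between 165 and 445 (65 to 147 higher, 100 to 298 lower), and the number of changes with diet between 0 and 361 (0 to 168 more positive on low salt, 0 to 193 more negative). The cause of the changes below was not tested. No paired analysis was possible because every rat has an animal number of its own and the labels pair no rats.

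On low salt, in place of 422 calls (154 higher, 268 lower), quantile normalization gave 264 (131 and 133), centring of array medians 509 (105 and 404), no filter 843 (520 and 323), the brightest 25% of probe sets 250 (41 and 209), adjustment within each chip 684 (251 and 433) and array weights 1316 (500 and 816). The Gapdh ratio as a covariate gave 266 (102 and 164), and the 8 low salt congenic rats alone 110 (40 and 70). On high salt, in place of 1427 calls (849 and 578), centring gave 1286 (575 and 711), no filter 2144 (1261 and 883), the brightest 25% 646 (333 and 313), array weights 2590 (1559 and 1031), the Gapdh covariate 273 (198 and 75), the beta-actin covariate 908 (592 and 316) and the bioD minus bioC covariate 83 (51 and 32). For the change with diet, in place of 47 calls (28 and 19), no filter gave 29 (24 and 5), the brightest 25% 25 (15 and 10), array weights 1626 (622 and 1004), the Gapdh covariate 0 (0 and 0), the beta-actin covariate 7 (2 and 5) and the bioD minus bioC covariate 2 (1 and 1).

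Among the named genes, the sign turned for Sgk1 with array weights (-0.0507). Other probe sets of the same gene pointed the other way for Aldh6a1 (0.0508), Cyp4a8 (0.0187), Dag1 (0.0952), Erbin (0.0572), Gatm (0.0969), Slc16a12 (0.0764), Hnrnpu (-0.279 and -0.306), Khdrbs1 (-0.0213), Nek9 (-0.119), Nfat5 (-0.0940), Peli2 (-0.137) and Zbtb18 (-0.268).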
